A study of Mus musculus with 5 samples.

Results

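The genes described here are 35 BCL2 family, caspase and other apoptosis genes, taken as a named list and matched to every array probe set with that single gene symbol, dim probe sets included. All 35 were found, with 88 probe sets among the 45037 non-control probe sets and 18193 genes measured. They were compared between ovaries of newborn female mice that lack Lhx8, a LIM homeobox gene expressed in oocytes, and wild type ovaries of the same C57/BL6/129SVEV Hybrid background. The Lhx8 null group had 3 arrays (replicates 1, 2 and 3) and the wild type group 2 arrays (replicates 2 and 3), and every array was hybridised with biotinylated target from 1 pool of 50 ovaries, from at least 25 animals, taken at postnatal day 0.5. The sources used here do not say how the null allele was made or whether any cell type escapes it.

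Apoptosis through the mitochondrion is set by the BCL2 family. Guards such as BCL2 and MCL1 hold the effectors BAX and BAK in check. BH3-only proteins such as BIM, BMF and BAD bind the guards or activate the effectors. Once the outer membrane is breached, cytochrome c and APAF1 form the apoptosome, on which caspase-9 is activated. Inhibitor of apoptosis proteins (IAPs) restrain caspases and SMAC/DIABLO relieves that restraint, while death receptors of the TNF receptor family start a second route through caspase-8. Around birth the mouse ovary loses many of its germ cells as cysts break down and primordial follicles form, and members of both routes are known to act in that loss.

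Values are deposited array signals on a linear scale. Differences are null minus wild type on the quantile normalised log2(signal + 16) scale, and a probe set passed at a Benjamini-Hochberg adjusted p below 0.05 over all 45037 probe sets (limma, two-sided). A gene's call is that of its brightest probe set. A probe set is called dim where its mean over the 5 arrays lies below the level of a signal of 150, and dim values are not set apart from background here because no detection calls were used. The Lhx8 probe set had signals of 333, 159 and 347 on null replicates 1, 2 and 3 and of 6450.1 and 5223 on wild type replicates 2 and 3. Across all probe sets the arrays correlated at 0.960 to 0.974 within the null group, 0.970 within the wild type group and 0.905 to 0.931 between groups, with null replicate 1 lowest within its group. Some array controls also differed by group. The mean signals of the hybridisation controls BioB, BioC, BioDn and CreX on null arrays were 1.74, 2.12, 1.52 and 1.90 times those on wild type arrays. For the 18S RNA control the ratio was 1.90. In each of these controls all null arrays were above both wild type arrays. The 3′ to 5′ signal ratio of Actb was 1.48 to 1.69 on null arrays against 1.39 and 1.43 on wild type arrays. For Gapdh the groups overlapped in this ratio, with 0.658 to 0.802 on null and 0.625 and 0.666 on wild type arrays. Their part in any result below was not tested.

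Of the 35 genes, 7 rose and 4 fell in Lhx8 null ovaries, and 24 did not pass. The genes that rose were Bcl2, Bok, Bad, Bmf, Apaf1, Tnfrsf1a and Casp12, and those that fell were Bcl2l10, Casp9, Diablo and Aifm1. The called share, 31.4%, lay near that of all genes at their brightest probe set, 27.5% (14.0% higher and 13.5% lower). Among the 26 genes that were not dim, 10 passed, or 38.5%, beside 39.2% of all genes that were not dim. For 24 of the 35 genes, 68.6%, the signals of the groups were free of overlap after normalisation, beside 55.7% of all genes. The called share of the list is thus not a result about apoptosis genes, and what follows is about which members moved.

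Most genes on both sides of the pathway did not pass. Of 21 genes that promote cell death, 5 rose, 3 fell and 13 did not pass, with a median log2 fold change of 0.17. Of 8 that protect from it, Bcl2 rose, 7 did not pass and 0 fell, with a median of 0.21. The median over all genes was -0.02. In 3 of the 8 protecting genes all null arrays were above both wild type arrays, and in the other 5 the groups overlapped. The mean log2 level of the 8 protecting genes was 10.26, 10.28 and 10.19 on null replicates 1, 2 and 3 and 10.01 and 10.15 on wild type replicates 2 and 3. All null arrays were above both wild type arrays, by 0.16 between the group means, but with arrays centred on their medians the sign turned, to -0.10. That of the 21 promoting genes was 9.12, 9.29 and 9.34 on null and 8.96 and 9.15 on wild type arrays, which overlapped. Within each array, the mean log2 level of the promoting genes minus that of the protecting genes was -1.15, -0.99 and -0.84 on null replicates 1, 2 and 3 and -1.05 and -0.998 on wild type replicates 2 and 3. These differences overlapped between the groups, and their means differed by 0.03. The remaining 6 genes have a mixed role or act mainly in inflammation or skin, and of these Casp12 rose and Bcl2l10 fell. With each array centred on its median, which moved the median log2 fold change of all probe sets from -0.00033 to -0.13, 3 of the 35 genes rose (Bmf, Apaf1 and Tnfrsf1a) and 7 fell (Bcl2l10, Casp9, Diablo, Aifm1, Bid, Casp2 and Casp6). That scaling gave 3396 higher and 6302 lower calls among all probe sets, beside 4816 and 4642 with quantile normalisation. Counts also fell to 4 higher and 1 lower without null replicate 3 and to 5 and 1 without null replicate 2. The called share of all probe sets fell as well, to 15.3% and 14.5%, from 21.0% with all 5 arrays. Without wild type replicate 2 or 3, the mean log2 fold change of the promoting genes was 0.10 or 0.29. That of the protecting genes was 0.09 or 0.23.

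**Figure D1:**
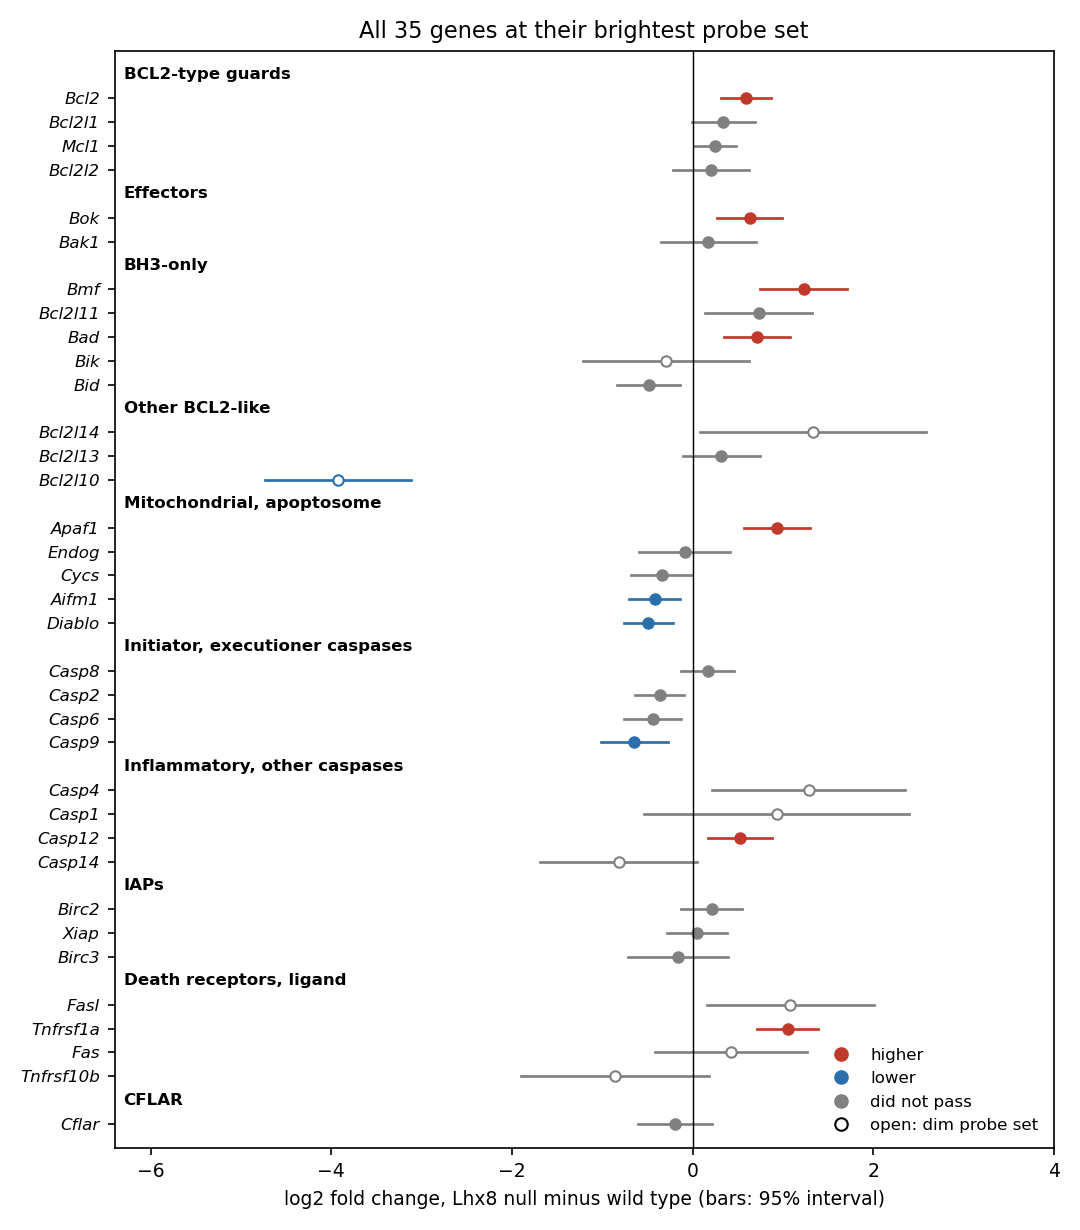
Log2 fold change, null minus wild type, of the 35 genes at their brightest probe set, grouped by role. Points are estimates from 3 null and 2 wild type arrays, bars are 95% intervals from the limma fit, red and blue mark genes that rose or fell, and open points are dim probe sets. Bcl2l10 stands alone at -3.92, while the other called genes lie between -0.64 and 1.23.

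Among the guards, which sequester BH3-only proteins and effectors, Bcl2 rose and the others did not pass. Bcl2 had signals of 1237, 1258 and 1219.6 on null replicates 1, 2 and 3 and of 841 and 839 on wild type replicates 2 and 3. All null arrays were above both wild type arrays and the spread within each group was small, with a rise of 0.59 on the log2 scale (SE 0.12, adjusted p = 0.00969). Its second probe set had 0.46 (adjusted p = 0.112), and of 3 dim probe sets the values were 1.80 (adjusted p = 0.0389), 0.56 and -0.65. Without wild type replicate 2 or 3 the estimate for Bcl2 stayed at 0.58 and 0.60 but did not pass (adjusted p = 0.0633 and 0.0638), nor did it with arrays centred on their medians (0.30, adjusted p = 0.173) or without a trend in the variance model (adjusted p = 0.0734).

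Mcl1, a short-lived guard, was measured by 6 probe sets, none of them dim. Their log2 fold changes ran from -0.0039 to 0.25 and none passed. At its brightest probe set Mcl1 had 4568, 4981 and 4830.4 on null and 4229.8 and 3998 on wild type arrays, a difference of 0.25 (95% interval 0.02 to 0.48, adjusted p = 0.126). Bcl2l1, which encodes BCL-XL, had 752, 644 and 667 on null and 586 and 489 on wild type arrays, at 0.34 (95% interval -0.01 to 0.69, adjusted p = 0.161). Its next probe set pointed the other way, at -0.48 (adjusted p = 0.225). Bcl2l2, which encodes BCL-W, overlapped between groups at 0.20 (95% interval -0.22 to 0.63, adjusted p = 0.496). For all 3 genes the intervals leave room for no more than a 2-fold rise at the brightest probe set.

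Of the effectors, which permeabilise the outer mitochondrial membrane, Bok rose. Bok had signals of 789, 954 and 907 on null and of 530.5 and 604 on wild type arrays, with 1 probe set. The groups did not overlap, and the rise was 0.63 (SE 0.16, adjusted p = 0.023). Without wild type replicate 2 the adjusted p was 0.152, without wild type replicate 3 it was 0.0763, and without null replicate 2 or 3 it was 0.0854 or 0.0763. Centring arrays on their medians left Bok at 0.38 (adjusted p = 0.183), and without a variance trend its adjusted p was 0.0925. Bak1 had 303, 259.9 and 226 on null and 236 and 180.2 on wild type arrays, which overlapped (0.17, 95% interval -0.35 to 0.70, adjusted p = 0.657).

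BH3-only genes, the sensors that engage guards and effectors, included the member with the highest called rise. Bmf, whose product binds BCL2-type guards, had 1252, 2053 and 1952 on null replicates 1, 2 and 3 and 768 and 700.5 on wild type replicates 2 and 3. Null replicate 1 was the lowest of its group and still above both wild type arrays. Bmf rose 2.34-fold, by 1.23 (SE 0.21, adjusted p = 0.00496), and 5.17% of all genes had a larger rise. A dimmer Bmf probe set had 0.88 (adjusted p = 0.101) and the dimmest, with signals of at most 77.4, had -1.14 (adjusted p = 0.176). The average of the 3 probe sets gave 0.32 (adjusted p = 0.486), and without wild type replicate 3 the brightest gave 1.17 (adjusted p = 0.0644).

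Bad, whose product binds BCL2 and BCL-XL and is switched off by survival kinases, rose at both of its probe sets. At the brightest it had 974, 786 and 1042 on null and 577 and 547 on wild type arrays, with no overlap. The rises were 0.71 (SE 0.16, adjusted p = 0.0154) and 0.76 (SE 0.15, adjusted p = 0.00865). At the brightest probe set the call was lost without wild type replicate 3 (0.68, adjusted p = 0.107), wild type replicate 2 (0.73, adjusted p = 0.0873) or null replicate 3 (0.63, adjusted p = 0.0603), with arrays centred on their medians (0.46, adjusted p = 0.0871) and without a variance trend (adjusted p = 0.0755).

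Bcl2l11, which encodes BIM, was positive at all 5 of its probe sets, but at the brightest the wild type arrays disagreed. That probe set had 1779, 1502 and 1414 on null replicates 1, 2 and 3, 1370.0 on wild type replicate 3 and 685 on wild type replicate 2. The difference of 0.73 (SE 0.26) did not pass (adjusted p = 0.0816), and without wild type replicate 3 it passed at 1.20 (adjusted p = 0.018). Without wild type replicate 2 it was 0.25 (adjusted p = 0.446), so its size turns on which wild type array is kept. The second probe set, with 881, 852 and 855 on null and 631 and 605 on wild type arrays, was tight within groups and passed at 0.48 (SE 0.13, adjusted p = 0.0334). In the fit of 1 probe set per gene without the dimmest 40% of genes, Bcl2l11 passed at adjusted p = 0.0387.

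Bid, which links caspase-8 to the mitochondrion, went the other way. Its brightest probe set had 624, 529 and 577 on null and 892 and 745 on wild type arrays. The groups did not overlap at any of its 3 probe sets, all with null arrays below. The brightest gave -0.48 (SE 0.15, adjusted p = 0.0573), the next -0.60 (adjusted p = 0.105) and the last, which was dim, passed at -1.46 (SE 0.38, adjusted p = 0.0293). With dim probe sets left out the brightest passed (adjusted p = 0.0364), and so it did without null replicate 1 (-0.54, adjusted p = 0.0374). Across 15 alternatives Bid passed in 6. Bik, a BH3-only gene of the endoplasmic reticulum, was dim at its 3 probe sets, with signals of at most 194 and log2 fold changes from -0.29 to 0.68, and none passed.

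Bcl2l10, a BCL2-like gene also known as Diva or Boo and expressed in oocytes, had the deepest fall of the 35. Its single probe set had 24.9, 38.4 and 44.4 on null replicates 1, 2 and 3 and 568 and 923 on wild type replicates 2 and 3. Every null array was far below both wild type arrays, and the wild type arrays differed from each other by less than the gap between groups. The log2 fold change was -3.92 (SE 0.35, adjusted p = 0.000267), a 15.2-fold fall, and 54 of 18193 genes fell further. The probe set counts as dim because its null values pull down the mean over arrays. Its fold depends on the added constant, at -4.45 with 1 and -3.02 with 64 in place of 16, and it passed under all 13 alternatives in which it was tested. Beside it, 8 of 8 oocyte and germ cell markers fell, and their summed signal was 5693 to 8485 on null and 46135 to 50719 on wild type arrays. Fewer oocytes and less RNA per oocyte cannot be told apart in whole ovaries.

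The other members of this family did not pass. Bcl2l13, a mitochondrial outer membrane protein, had 0.32 and -0.20 at its 2 probe sets. Bcl2l14 was dim, with 92.8, 138 and 187 on null and 12.7 and 73.2 on wild type arrays. The difference of 1.33 (SE 0.54, adjusted p = 0.126) came with wide spread, since null replicate 1 was close to wild type replicate 3.

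**Figure D2:**
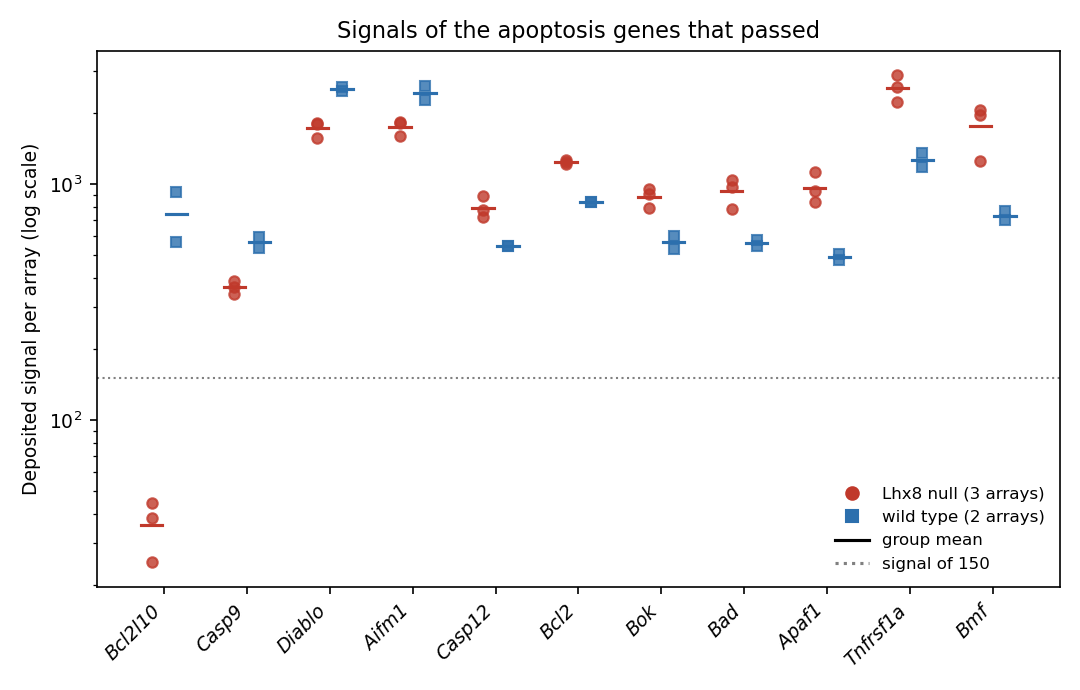
Deposited signal on each array (log axis) for the 11 genes that passed, ordered by log2 fold change. Circles are the 3 null arrays, squares the 2 wild type arrays, short lines the group means and the dotted line a signal of 150. The groups do not overlap for any of the 11, and only the null arrays of Bcl2l10 lie below the dotted line.

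The genes of the apoptosome moved in opposite directions. Apaf1, the scaffold that binds cytochrome c, had 1119, 838 and 929 on null replicates 1, 2 and 3 and 502 and 478 on wild type replicates 2 and 3. Casp9, the caspase activated on that scaffold, had 389, 367 and 343 on null and 596 and 535 on wild type arrays. Both comparisons were free of overlap. Apaf1 rose by 0.94 (SE 0.16, adjusted p = 0.00456) and Casp9 fell by 0.64 (SE 0.16, adjusted p = 0.0254). The log2 level of Apaf1 minus that of Casp9 within each array was higher by 1.58 in null than in wild type ovaries. This value combines both changes just given, for a pair picked by them, so it is not separate support. A constant shift of a whole array cancels in it, but a shift that depends on signal level does not.

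Other probe sets bear on both genes. The second Apaf1 probe set had 314, 250.1 and 199 on null and 226 and 216 on wild type arrays and did not follow (0.02, adjusted p = 0.964), so the average of the 2 was 0.48 (adjusted p = 0.064). The null arrays were below the wild type arrays at all 3 Casp9 probe sets, of which 2 were dim, at -1.20 and -0.43, and their average did not pass (-0.76, adjusted p = 0.0908). Without wild type replicate 3 Apaf1 stood at 0.92 (adjusted p = 0.0501). Casp9 lost its call without wild type replicate 2 (adjusted p = 0.155), wild type replicate 3 (adjusted p = 0.108), null replicate 2 (adjusted p = 0.0683) or null replicate 3 (adjusted p = 0.0798), with values from -0.69 to -0.58, and without a variance trend (adjusted p = 0.0659).

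The promoters of this pair are shown because the genes encode partners of a single complex and moved apart. Each is the RefSeq window of 250 bases before to 50 after the gene's start on GRCm38.p6, 5′ to 3′ on the gene's strand, with GC boxes (GGGCGG or its complement on either strand) in capitals. Apaf1 lies at chr10:91082694-91082993 on the minus strand and Casp9 at chr4:141793362-141793661 on the plus strand.
Apaf1: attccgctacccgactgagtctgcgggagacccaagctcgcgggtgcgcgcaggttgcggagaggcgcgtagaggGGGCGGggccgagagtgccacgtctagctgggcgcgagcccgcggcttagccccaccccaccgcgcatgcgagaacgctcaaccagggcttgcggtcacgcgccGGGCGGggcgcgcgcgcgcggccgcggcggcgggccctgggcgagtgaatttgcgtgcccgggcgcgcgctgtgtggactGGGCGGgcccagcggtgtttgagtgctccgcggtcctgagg
Casp9: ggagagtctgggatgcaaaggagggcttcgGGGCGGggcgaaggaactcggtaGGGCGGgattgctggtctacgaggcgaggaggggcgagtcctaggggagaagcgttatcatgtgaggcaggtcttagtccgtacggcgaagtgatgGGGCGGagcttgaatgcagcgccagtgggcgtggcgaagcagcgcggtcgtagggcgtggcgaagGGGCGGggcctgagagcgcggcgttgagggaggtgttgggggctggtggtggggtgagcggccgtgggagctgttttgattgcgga
Apaf1 has 3 GC boxes and Casp9 has 4, all on the strand shown, and both windows are rich in CpG, with 46 and 28 CpG dinucleotides against a median of 7 over all 32851 promoter windows. Promoters of 32 of the 35 genes were in the table, with 43 windows. A GC box was in 22 of these 43 and in 35.7% of all windows. By gene, 20 of the 32 had one in at least 1 window, and so had 7 of the 10 called genes among them. The homeodomain core TAATTA was in 5.29% of all windows and TAATTG or its complement CAATTA in 2628 of the 32851. Neither was in any of the 43 windows of these genes.

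Of the other mitochondrial genes Diablo and Aifm1 fell, and Cycs and Endog did not pass. Diablo, whose product frees caspases from IAPs, had 1569, 1819.6 and 1800.1 on null and 2474 and 2577 on wild type arrays. It fell by 0.49 (SE 0.12, adjusted p = 0.0204), with no overlap, and its dim second probe set had -0.37 (adjusted p = 0.62). Aifm1, which encodes a flavoprotein needed for the respiratory chain as well as for caspase-independent death, had 1596, 1811 and 1825 on null and 2267 and 2609.5 on wild type arrays, a fall of 0.42 (SE 0.12, adjusted p = 0.0447). In both genes null replicate 1 was the lowest array.

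These falls were small and rested on few arrays. Diablo did not pass without wild type replicate 2 (adjusted p = 0.0869), wild type replicate 3 (adjusted p = 0.128), null replicate 2 (adjusted p = 0.0534) or null replicate 3 (adjusted p = 0.0529), with its probe sets averaged (-0.43, adjusted p = 0.138) or without a variance trend (adjusted p = 0.132). Aifm1 lost its call when any 1 of the 5 arrays was left out. The value was -0.36 without null replicate 1 (adjusted p = 0.0586), -0.44 without null replicate 2 (adjusted p = 0.1), -0.45 without null replicate 3 (adjusted p = 0.0884), -0.53 without wild type replicate 2 (adjusted p = 0.0807) and -0.32 without wild type replicate 3 (adjusted p = 0.254). Nor did it pass without a variance trend (adjusted p = 0.19), with robust variances (adjusted p = 0.0524) or with the replicate block (-0.36, adjusted p = 0.0667).

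Cycs, which encodes cytochrome c, had 5038, 6334 and 7032 on null and 6549.6 and 8072 on wild type arrays. After normalisation the null arrays were below the wild type arrays (-0.34, SE 0.15), but the difference did not pass (adjusted p = 0.148). Its other 3 probe sets had -0.17, 0.15 and, where dim, -1.29, and none passed. Endog, a mitochondrial nuclease, overlapped between groups at both probe sets (-0.08 and -0.17).

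Besides Casp9, none of the initiator and executioner caspases among the 35 genes passed, although 2 came close. Casp6, an executioner, had 1439, 1911 and 1710.3 on null and 2359.7 and 2379 on wild type arrays, and Casp2, an initiator that acts in oocyte death, had 1699, 1556 and 1765 on null and 2177 and 2337 on wild type arrays. All null arrays were below both wild type arrays. The differences were -0.44 (SE 0.14, adjusted p = 0.0546) for Casp6 and -0.37 (SE 0.12, adjusted p = 0.0589) for Casp2. With dim probe sets left out both passed (adjusted p = 0.0402 and 0.0455), as they did with the deposited scaling (adjusted p = 0.038 and 0.0328). With dim probe sets left out, 43.5% of all tested probe sets passed, beside 21.0% with all probe sets. Across 15 alternatives Casp6 passed in 4 and Casp2 in 5. Casp8, the initiator below death receptors, had 1030.4, 1080.2 and 1109 on null and 939.6 and 1030.3 on wild type arrays, at 0.17 (95% interval -0.12 to 0.46, adjusted p = 0.409).

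Of the inflammatory and other caspases, Casp12 rose. Casp12, a caspase of the endoplasmic reticulum and the inflammatory cluster, had 721, 888 and 772 on null and 544 and 548 on wild type arrays. Its 2 probe sets agreed, at 0.52 (SE 0.15, adjusted p = 0.0465) and 0.56 (SE 0.17, adjusted p = 0.0474), both with all null arrays above. The call sat at the threshold: at the brightest probe set the adjusted p was 0.17 without wild type replicate 3, 0.189 without wild type replicate 2, 0.148 without null replicate 2 and 0.107 without null replicate 3. It was 0.331 with arrays centred on their medians (0.28), 0.0503 with 64 as the added constant and also with robust variances, and 0.134 without a variance trend.

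The pyroptotic caspases were dim. Casp4 had 146, 65 and 116 on null and 43.9 and 13 on wild type arrays, all null arrays above, with a difference of 1.29 (SE 0.47) that did not pass (adjusted p = 0.0901). Casp1 had 23.6, 120.3 and 51.1 on null and 5.1 and 37.7 on wild type arrays, which overlapped (0.93, adjusted p = 0.364). Casp14, a caspase of cornifying skin, was dim and had -0.82 (adjusted p = 0.173) and 0.24 at its 2 probe sets. Beside the inflammatory caspases, 6 of 7 macrophage markers rose, and the summed signal of the 7 was 8859 to 10426 on null and 2739 to 2996 on wild type arrays. Its part in the result was not tested.

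None of the IAP genes, whose products bind caspases or their activating complexes, passed at the brightest probe set. Birc2 and Birc3, which encode cIAP1 and cIAP2, overlapped between groups at 0.21 (95% interval -0.12 to 0.55) and -0.16 (95% interval -0.71 to 0.39). Xiap, the direct caspase inhibitor, differed between its probe sets. The brightest had 2994, 4139 and 4105 on null and 3566 and 3698 on wild type arrays, at 0.05 (95% interval -0.28 to 0.38, adjusted p = 0.847). At each of the other 6, all null arrays were below both wild type arrays, with log2 fold changes from -1.38 to -0.55. The second probe set, which was not dim, had 364, 463 and 436 on null and 558 and 763 on wild type arrays (-0.64, SE 0.21, adjusted p = 0.063). A dim probe set with 26.5, 33.1 and 29.4 on null and 74.1 and 96.5 on wild type arrays passed at -1.38 (SE 0.36, adjusted p = 0.0307). The average over the 7 probe sets fell, at -0.81 (adjusted p = 0.0251), while the brightest alone did not, so a direction for Xiap depends on the probe set.

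**Figure D3:**
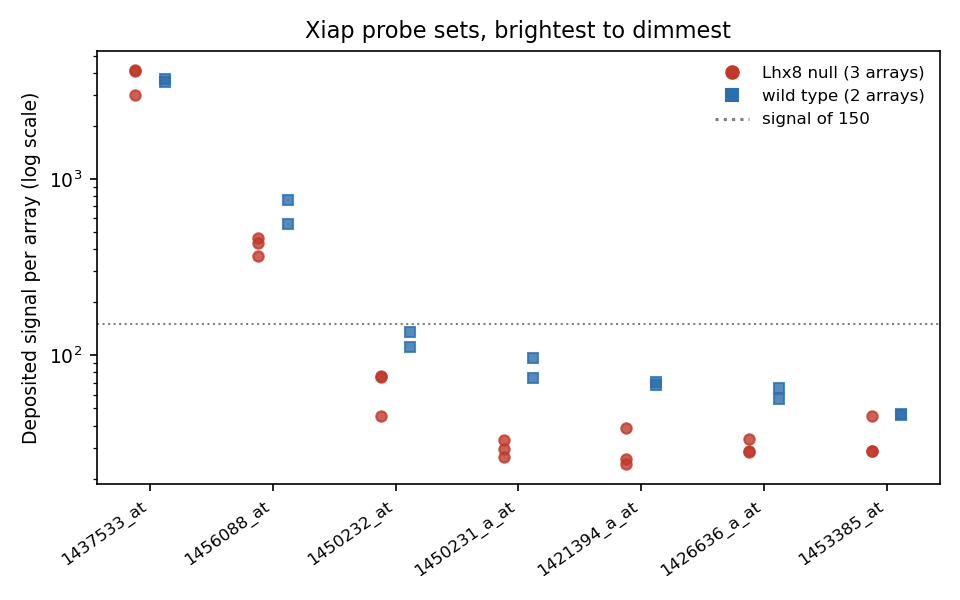
Deposited signal on each array (log axis) for the 7 Xiap probe sets, from the brightest to the dimmest. Circles are the 3 null arrays and squares the 2 wild type arrays, with a dotted line at a signal of 150. The groups overlap at the brightest probe set, and at the other 6 all null arrays lie below both wild type arrays, 5 of them under the dotted line on all arrays.

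Among the death receptors, Tnfrsf1a, the main receptor for TNF, rose. It had 2891, 2565 and 2218 on null replicates 1, 2 and 3 and 1356 and 1180.2 on wild type replicates 2 and 3. Every null array was well above both wild type arrays, with a rise of 1.05 (SE 0.15, adjusted p = 0.00186), or 2.08-fold. Tnfrsf1a passed under all 15 alternatives, with values from 0.75 to 1.15. Its rise stood beside those of the stromal markers, of which 6 of 6 rose, and of the macrophage markers above. The stromal sum was 77701 to 89083 on null and 23927 to 29947 on wild type arrays, and its part in the rise of Tnfrsf1a was not tested.

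The FAS arm was dim on these arrays. Fas had 147, 79.7 and 154 on null and 62.9 and 79.5 on wild type arrays (0.43, adjusted p = 0.472). Fasl, the ligand of FAS, had 16.4, 42.3 and 44.1 on null and 4.6 and 6.1 on wild type arrays, all under the level called dim (1.08, adjusted p = 0.0977). Tnfrsf10b, the TRAIL receptor, had signals of at most 62.7 at its 2 probe sets and did not pass (-0.86 and -0.17). Cflar, which encodes the caspase-8 inhibitor c-FLIP, had 432, 532 and 499 on null and 514 and 588 on wild type arrays, at -0.20 (95% interval -0.60 to 0.21, adjusted p = 0.5), and none of its 5 probe sets passed.

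Over all 88 probe sets, 11 rose and 6 fell, which is 19.3% beside 21.0% of all probe sets (10.7% higher and 10.3% lower). Of the 88, 43 were dim. Several probe sets were available for 25 of the genes and 1 for 10. Of all 35 genes 14 had at least 1 probe set that passed, and 0 had probe sets that passed in opposite directions. The genes added to the 11 by a further probe set were Bcl2l11, Bid and Xiap, each described above.

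**Figure D4:**
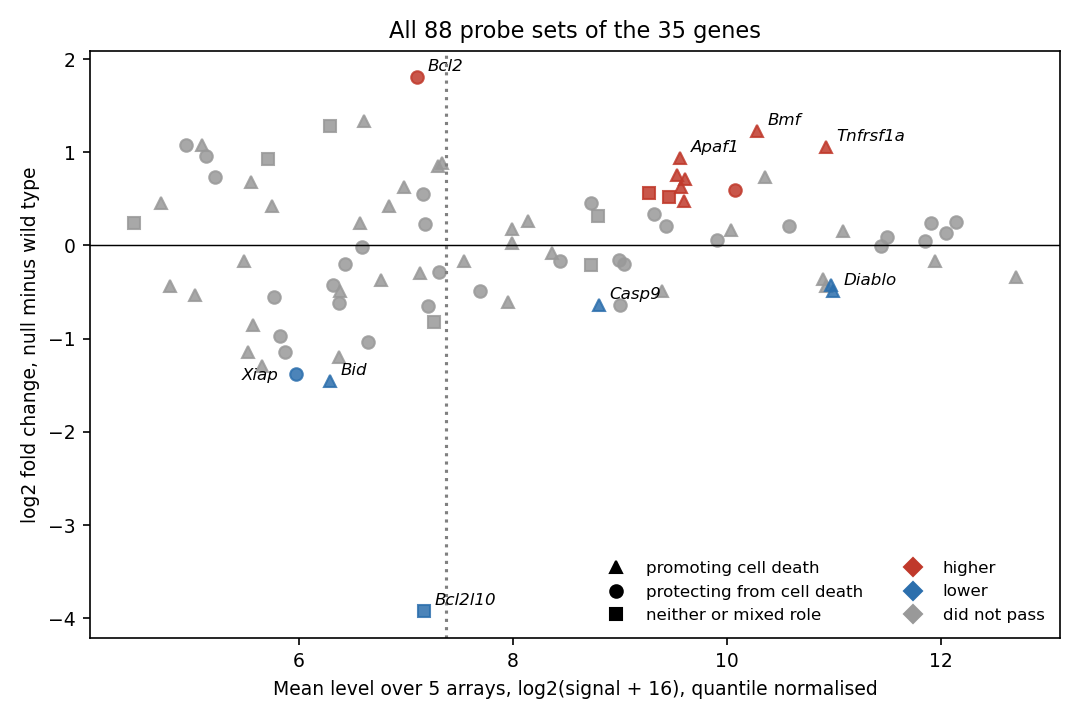
Log2 fold change against mean level over the 5 arrays for all 88 probe sets of the 35 genes. Triangles are genes that promote cell death, circles genes that protect from it and squares genes with neither or a mixed role, red and blue mark probe sets that rose or fell, and the dotted line is the level below which a probe set is called dim. Of the 88 probe sets, 11 rose and 6 fell, which is 19.3% beside 21.0% of all probe sets.

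Other genes of the pathway were called about as often as genes in general. Of 42 listed genes outside the 35, 32 had a probe set with a single symbol, and 3 rose and 7 fell, with 22 not passing and a median of -0.16, beside 14.0% higher and 13.5% lower among all genes. Of 4 p53 family and p53 regulator genes measured, 3 fell and 0 rose. Trp63, whose product triggers death of oocytes with DNA damage, fell from 2120.0 and 2309.8 on wild type replicates 2 and 3 to 14.3, 98.5 and 63.5 on null replicates (adjusted p = 0.000404). The null signals are all below 150, so the log2 fold change of -5.11 depends on the added constant. Mdm4 and Mdm2, which restrain p53, fell by 1.22 (SE 0.14, adjusted p = 0.000842) and 1.01 (SE 0.14, adjusted p = 0.00198). Trp73 was dim and did not pass (-0.16).

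Of 4 further BCL2 family genes measured, 1 fell and 0 rose. Bnip3, a mitochondrial BH3-containing gene that acts in mitophagy, fell by 0.97 (SE 0.12, adjusted p = 0.00133). The p53 target genes Pmaip1 and Bbc3, which encode NOXA and PUMA, had -1.29 (adjusted p = 0.0567) and 0.15 (adjusted p = 0.726), and Hrk had 0.57 (adjusted p = 0.605). Of 3 caspase targets, Dffa, Dffb and Parp1, none passed at the brightest probe set, at 0.44, -0.00074 and -0.31. Parp1, a DNA repair enzyme, passed at its next probe sets, at -0.86 (adjusted p = 0.0271) and -0.56 (adjusted p = 0.0288), neither of them dim.

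Of 6 adaptor, ligand and further TNF receptor genes, 1 rose and 0 fell. Tradd, the adaptor that binds the intracellular part of TNFR1, rose by 0.71 (SE 0.19, adjusted p = 0.0329), in the same direction as Tnfrsf1a. Another Tradd probe set that was not dim overlapped between groups (0.54, adjusted p = 0.309). Traf2, Tnfsf10 and Tnfrsf1b had 0.36 (adjusted p = 0.209), -0.94 (adjusted p = 0.0882) and -0.63 (adjusted p = 0.241). Of 6 further IAP genes and antagonists 1 fell and 0 rose: Birc5, which encodes survivin and acts mainly in mitosis, fell by 0.86 (SE 0.15, adjusted p = 0.00595). Htra2, an IAP antagonist of mitochondria, had 0.57 (adjusted p = 0.068) at its brightest probe set and passed at the other, at 0.58 (adjusted p = 0.0448). Of 4 inflammasome genes 2 rose, Il18 by 0.66 (SE 0.12, adjusted p = 0.00688) and Pycard by 0.70 (SE 0.17, adjusted p = 0.0244). Of 5 other regulators 2 fell, Aven, an inhibitor of APAF1, by 1.82 (SE 0.19, adjusted p = 0.000556) and Bcap31, a caspase-8 substrate of the endoplasmic reticulum, by 0.65 (SE 0.10, adjusted p = 0.00326). The other Bcap31 probe set, also not dim, overlapped between groups at -0.08 (adjusted p = 0.65). Bag1 had 0.31 (SE 0.11, adjusted p = 0.0982), with all null arrays above both wild type arrays, and did not pass. Vdac1 did not pass at its brightest probe set (0.26, adjusted p = 0.291). Of its further probe sets that were not dim, 2 rose, at 0.66 (adjusted p = 0.01) and 0.79 (adjusted p = 0.00126). Another had 0.38 (adjusted p = 0.0912). The fall of Aven stood beside the rise of Apaf1 and the fall of Casp9.

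Markers of several cell types differed between the groups, and these values stand beside every result above. No cells were counted, so a change in cell share and a change in RNA per cell cannot be told apart. Oocyte and germ cell markers fell in 8 of 8 cases and pregranulosa markers, among them Foxl2 and Kitl, in 5 of 5, with summed pregranulosa signals of 14528 to 16411 on null and 24365 to 25969 on wild type arrays. Markers of tract and surface epithelium rose in 8 of 8 cases, with sums of 35186 to 40819 on null and 10002 to 10765 on wild type arrays. Of 4 endothelial markers 2 rose, with sums of 2907 to 3189 and 1746 to 2006. Of 3 erythroid markers 1 rose, Alas2, and the 2 globin genes were dim, at 3.7 to 67.2. Both globin genes pointed the other way and did not pass. Hbb-bh1 had -1.30 (adjusted p = 0.122) and Hba-a1 had -0.65 (adjusted p = 0.558). No defining marker of these lists other than the globin genes was dim on average. How far each apoptosis gene follows the share of a cell type in the pool was not tested.

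**Figure D5:**
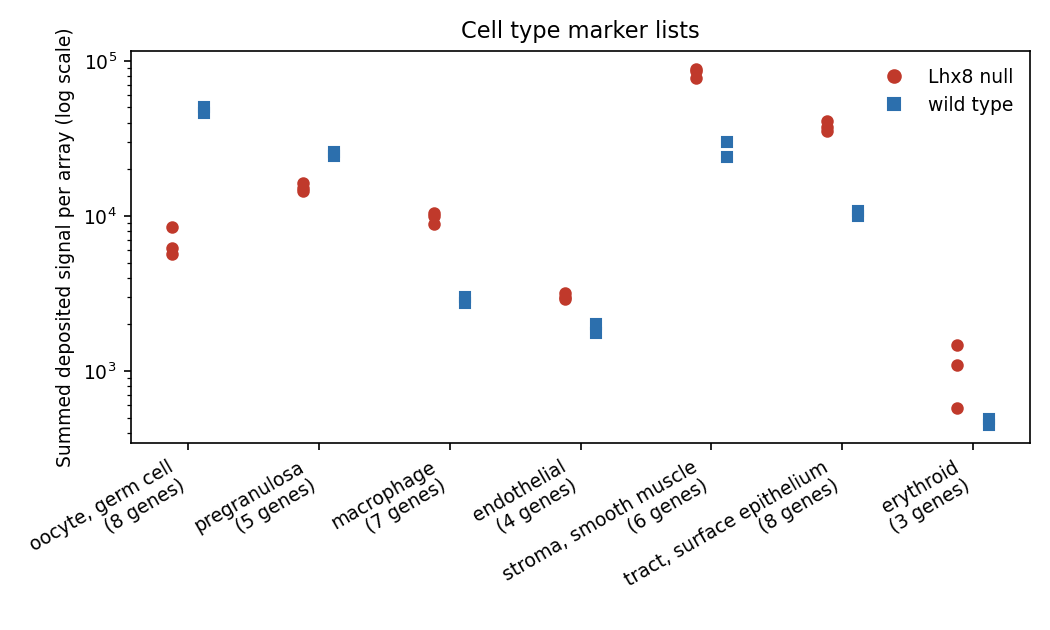
Summed deposited signal per array (log axis) of the 7 cell type marker lists, each gene at its brightest probe set. Circles are the 3 null arrays and squares the 2 wild type arrays. Null arrays lie below wild type arrays for oocyte and pregranulosa markers and above them for the other 5 lists. The erythroid sum comes mostly from Alas2, while the dim globin genes were lower on average on null arrays.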

How the data were processed

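The deposited values are array intensities, 1 per probe set and array, scaled by the authors so that the 2% trimmed mean is 500 on every array. GCOS is named for wild type arrays in the submitters' processing notes, while for null arrays no software is given in the sources used here. Replicate 1 of the wild type was not analysed here. Array medians differed by 0.38 on the log2(signal + 16) scale, so the 45037 non-control probe sets (64 controls left out of 45101) were quantile normalised and tested with limma 3.58.1 in R 4.3.3 (lmFit, eBayes with a variance trend). Of these, 34945 had 1 gene symbol, 932 several and 9160 none, and probe sets with several or none were named nowhere. No brightness filter was applied, since the list includes dim probe sets. Replicates are pools, so p-values measure the spread between pools, and 3 against 2 arrays limit the precision of all values. No array was a copy of another (at most 118 equal values).

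The members, roles, pathway lists and marker lists were chosen with earlier results of these data known. All 35 genes are accounted for, with values per array for those that passed, and pathway genes are named by smallest p, up to 4 per list. Steps were tested on simulated data. Alternatives covered scaling, the added constant, brightness filters, probe set choice, the variance model, the replicate number as a block and each array left out. Promoter windows are from RefSeq. Figures were drawn with matplotlib 3.10.9.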

Additional observations from a re-analysis of the deposited data

How the results depend on the processing

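Directions of the 11 called genes were the same under every alternative run, but most calls were not. Each of the 35 genes had 15 alternatives, except the 9 that are dim at their brightest probe set, which had 13. Of the resulting values, 438 kept their side of the threshold, 47 calls were lost and 21 were gained. The remaining 1, Xiap with its probe sets averaged, passed with the opposite sign to the brightest probe set (-0.81). Tnfrsf1a and Bcl2l10 passed in all that tested them. With arrays centred on their medians 3 genes were higher and 7 lower, of which 3 and 6 promote death, and 0 protecting genes rose. Without a variance trend 3 were higher and 1 lower, with 3 and 0 promoting genes and 0 protecting genes higher, and 2953 probe sets were higher in all. Lower promoting genes numbered 5 with the deposited scaling and 6 with dim probe sets left out or with 1 probe set per gene and the dimmest 40% left out. The called share of all tested probe sets was 22.4% with the deposited scaling and 43.5% with dim probe sets left out, beside 21.0% of all probe sets. In the fit of 1 probe set per gene it was 47.8%. These higher counts are thus not a result about the promoting genes. With probe sets averaged, 1 protecting gene fell. Leaving out 1 array gave 2 to 8 genes higher and 1 to 4 lower, 2 to 6 and 0 to 3 promoting genes, 0 to 1 protecting genes higher, and 2134 to 5098 probe sets higher and 1801 to 4929 lower overall. With 1 wild type array left, that array is assumed to vary like the others. Counts over all probe sets could not be given for the gene-level alternatives. Replicate numbers 2 and 3 are shared by the groups, but the labels do not say that they pair pools (correlation of deviations 0.010). With the replicate block 9 genes were higher and 4 lower. Low signal limits the 9 genes that are dim at their brightest probe set, for which only large differences could pass.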
